A study of Homo sapiens with 2 samples.

Results

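The clustered protocadherins were measured in single cells of H9, an established line of human embryonic origin, in 2 pluripotent states. They were taken as every listed gene whose symbol starts with PCDHA, PCDHB or PCDHG followed by a letter or digit, which gave 41 of 22474 genes: 13 PCDHA, 14 PCDHB and 14 PCDHG genes. The first state was embryonic stem cells (ESCs), profiled in 16 cells. The second, profiled in 25 cells, was extended pluripotent stem cells grown without feeders (ffEPSCs), which had been made from H9 ESCs. The comparison asked how expression differs between the states. Both states thus share 1 cell line, no culture medium or factor is given in the sources used here, and nothing says how many cultures the cells came from. Libraries were made with Smart-seq2, which copies polyadenylated RNA of each cell along its whole length and amplifies the copies with no molecular barcode.

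Each state was deposited as 1 sample, and cells of a sample are not replicates, so the states could not be tested against each other. Values below describe these libraries. Intervals on levels and ratios cover counting error only, and those on shares of cells take the cells of a state as independent draws, which is not known here. Amplified copies of 1 molecule can be read many times, so the true error is larger. Gene counts summed to 265412149 over the ESC cells (11714517 to 19965639 a cell) and to 374101290 over the ffEPSC cells (12507469 to 17811209 a cell). Levels are counts scaled to 1000000 gene counts (CPM), pooled over the cells of a state or within a cell. A count of 0 in a pooled library allows up to 3 counts, or 0.0113 CPM in ESCs and 0.00802 CPM in ffEPSCs. All 8 markers of pluripotency examined had at least 5 CPM in 1 library or both and were within 2-fold between the states. The 4 shallowest ESC cells stood apart, with 63.5 to 218 CPM of POU5F1 against 892 CPM in the pooled ESC library, and the values without them are given where they turn a direction or move a result.

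Clustered protocadherins are adhesion proteins of the cadherin superfamily and are best known from neurons. There, each cell makes a small choice of them, and contact between membranes with the same choice lets a neuron tell its own branches from those of other cells. In the PCDHA and PCDHG clusters, each variable exon has its own promoter and is spliced to constant exons that all genes of the cluster share, whereas PCDHB genes have a single coding exon and no constant part. Most promoters carry a conserved element around the letters CGCT. CTCF and cohesin are known to bring a chosen promoter to a distant enhancer, and promoters that are not used are commonly methylated.

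Promoter sequences are shown for the genes with the highest levels or the largest differences, because each of these genes is read from a promoter of its own. They come from RefSeq on GRCh38.p14, which had an entry for 34 of the 41 genes. Within 250 bases before the annotated start, the most frequent word of 8 bases holding CGCT was searched on both strands in each cluster. In PCDHA it was ATGTCGCT, found in 9 of 13 promoters and in 0.182% of 35116 human promoters. For PCDHB it was GTGGCGCT, found in 12 of 14 and in 0.940% of all promoters. In PCDHG it was GCCGCTGT, found in 11 of 20 and in 1.23% of all. Each word was absent from the promoters of the other clusters. The 4 letters CGCT alone were in 45 of the 47 promoters that the table gives for the clusters, listed genes or not, but also in 64.8% of all promoters. Capitals mark the word and lower case the bases around it, read 5′ to 3′ on the plus strand.
PCDHA4: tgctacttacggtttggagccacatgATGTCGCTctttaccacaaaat
PCDHA10: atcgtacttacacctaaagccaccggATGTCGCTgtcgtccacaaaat
PCDHB2: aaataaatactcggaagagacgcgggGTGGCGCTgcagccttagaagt
PCDHB3: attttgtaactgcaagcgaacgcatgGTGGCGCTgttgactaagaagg
PCDHB5: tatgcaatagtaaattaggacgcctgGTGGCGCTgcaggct
PCDHB10: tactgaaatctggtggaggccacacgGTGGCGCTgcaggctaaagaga
PCDHB15: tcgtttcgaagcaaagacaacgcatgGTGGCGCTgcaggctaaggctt
PCDHGB4: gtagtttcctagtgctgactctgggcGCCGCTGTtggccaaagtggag
PCDHGA10: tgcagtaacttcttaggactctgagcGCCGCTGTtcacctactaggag

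On GRCh38.p14 these windows lie at chr5:140806965-140807012 (PCDHA4), chr5:140855827-140855874 (PCDHA10), chr5:141094530-141094577 (PCDHB2), chr5:141100379-141100426 (PCDHB3), chr5:141135165-141135205 (PCDHB5), chr5:141192285-141192332 (PCDHB10), chr5:141245300-141245347 (PCDHB15), chr5:141387605-141387652 (PCDHGB4) and chr5:141412919-141412966 (PCDHGA10). None of them overlapped an exon of a clustered protocadherin, while those of PCDHB3 and PCDHB15 lay over exons of the antisense genes AC244517.2 and AC244517.11. The PCDHB5 window ends at the RefSeq start of the gene. The PCDHB word stood upstream of PCDHB genes that were high in ffEPSCs (PCDHB5, PCDHB3), read in most cells of both states (PCDHB2) and low in ffEPSCs (PCDHB10). PCDHA11, PCDHA9, PCDHAC1 and PCDHAC2 lacked the PCDHA word in this window. A match is a description of the letters and not a site that was measured.

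All 41 genes lie on chromosome 5. In GENCODE version 29 on GRCh38 the PCDHA cluster spans chr5:140786136-141012347, the PCDHB cluster chr5:141051135-141249365 and the PCDHG cluster chr5:141330571-141512981. The annotation names 16, 19 and 24 genes there, of which 3, 5 and 10 were not listed in the count tables, so counts of genes per cell refer to the listed genes. Every listed gene had reads in at least 3 of the 41 cells.

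The clearest difference between the states lay in the PCDHB cluster, and there in PCDHB5 and PCDHB3. The pooled level of the whole cluster was 17.1 CPM in ESCs (16.6 to 17.6, exact Poisson 95% interval). In ffEPSCs it was 48.7 CPM (48.0 to 49.4), 2.86-fold higher. In single ESC cells it ran from 0 to 44.9 CPM with a median of 11.2, and in single ffEPSC cells from 12.01 to 102 CPM with a median of 41.9. All 25 ffEPSC cells were above the ESC median and 10 were above the highest ESC cell, so the ranges overlapped. The ESC cells with no PCDHB gene read were 3, all among the 4 shallowest, whose PCDHB level ran from 0 to 36.7 CPM against 6.63 to 44.9 CPM in the other 12. Without those 4 cells the log2 ratio of the cluster, with 1 CPM added to each level, was 1.303 in place of 1.46.

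PCDHA had 31.6 CPM in ESCs (30.9 to 32.3) against 43.0 CPM in ffEPSCs (42.3 to 43.6), which is a log2 ratio of 0.43. Single cells ran from 16.0 to 60.2 CPM around a median of 31.2 in ESCs and from 9.14 to 118 CPM around 35.6 in ffEPSCs, and 17 of the 25 ffEPSC cells were above the ESC median. PCDHG had 31.2 CPM in ESCs (30.6 to 31.9) against 29.7 CPM in ffEPSCs (29.1 to 30.2), which is a log2 ratio of -0.07. Its single cells ran from 8.18 to 55.0 CPM around 32.7 in ESCs and from 0 to 92.8 CPM around 28.5 in ffEPSCs. In both of these clusters the spread between cells of a state was wider than the difference between the states. Neither direction held throughout: within set 3 of the cell names the PCDHA ratio was -0.14, and within set 1 the PCDHG ratio was 0.65.

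**Figure D1:**
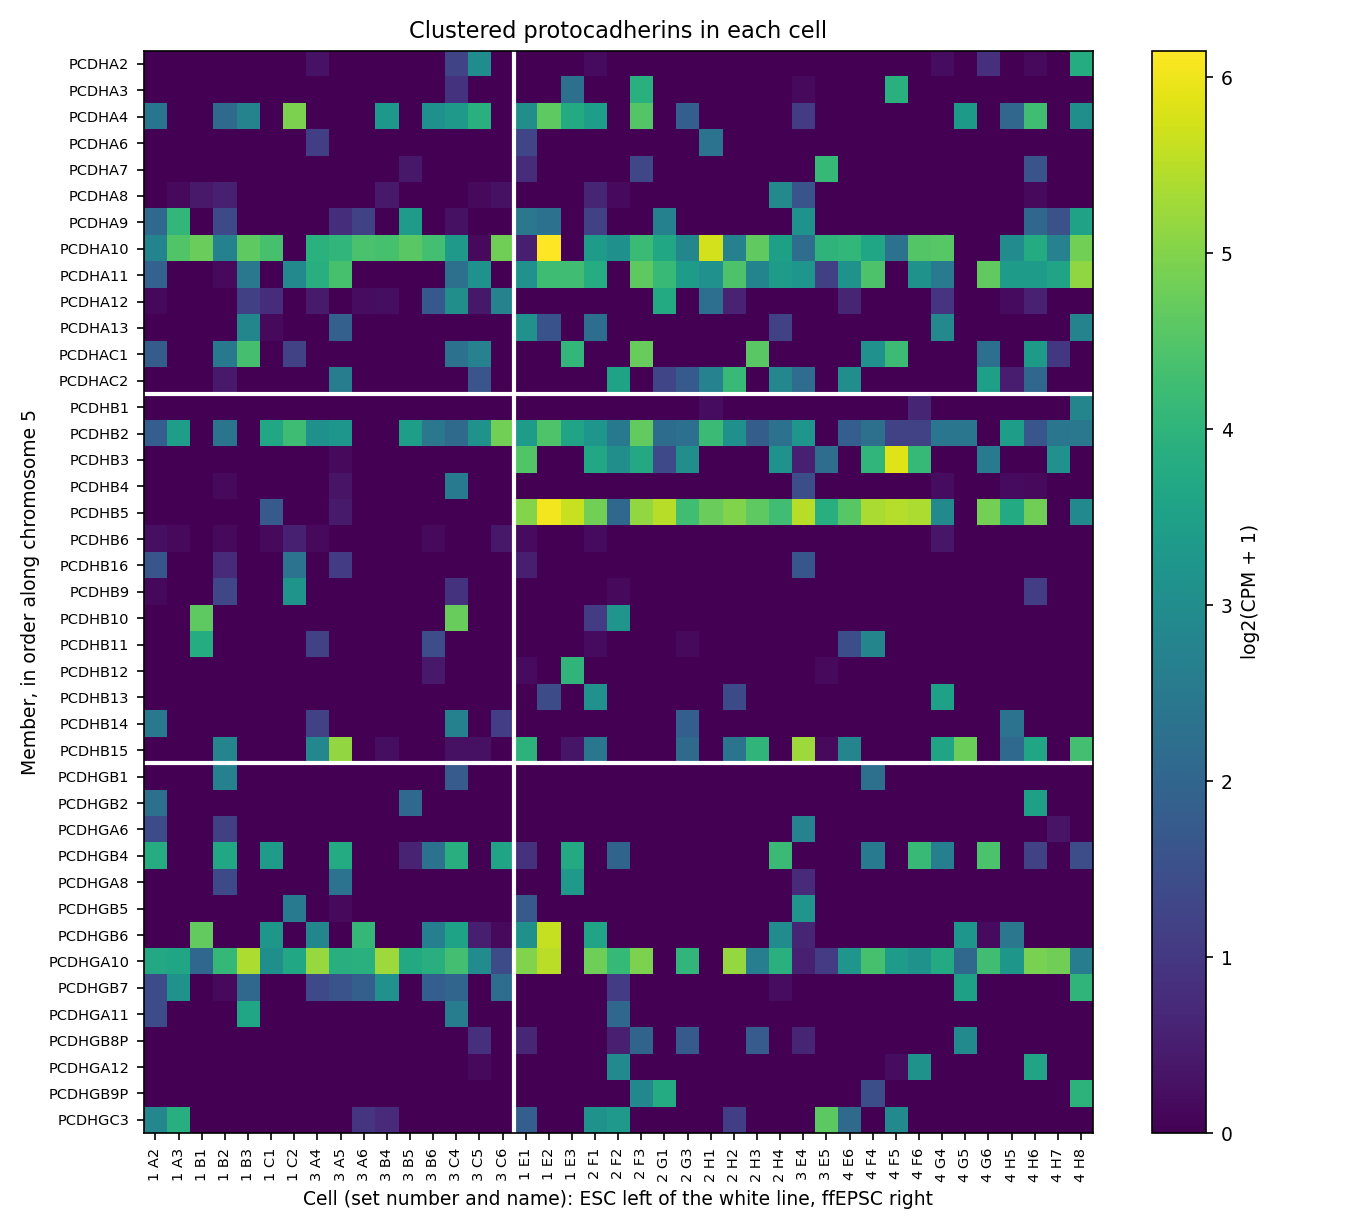
Level of each of the 41 genes (rows, in order along chromosome 5) in each cell (columns, labelled by set number and cell name), as log2 of CPM plus 1 in colour. White lines separate ESC from ffEPSC cells and the PCDHA, PCDHB and PCDHG clusters. PCDHB5 is bright in 23 of 25 ffEPSC cells and reaches 1 CPM in 1 of 16 ESC cells, while PCDHA10 and PCDHGA10 are bright in most cells of both states.

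Among the PCDHB genes, PCDHB5 had the largest log2 ratio with 1 CPM added to each level. Without that addition the ratio of PCDHB3 was larger, against an ESC level of 2 counts. PCDHB5 has a single exon at chr5:141135218-141138625. Its level in single ESC cells had a median of 0 and a highest value of 2.27 CPM, with the next cell at 0.37 CPM, whereas in ffEPSC cells it ran from 0 to 65.4 CPM with a median of 27.1. It was read, meaning at 1 CPM or more, in 1 of 16 ESC cells (6.25%, 0.16 to 30.2, Clopper-Pearson 95% interval) and in 23 of 25 ffEPSC cells (92%, 74.0 to 99.0). Pooled, it had 44 counts (0.17 CPM) in ESCs and 26.1 CPM in ffEPSCs. That is a log2 ratio of 4.54 with 1 CPM added, and of 6.87 to 7.76 as the counting interval without it. High PCDHB5 was seen in all 4 ffEPSC sets, at 48.7 CPM in set 1, 24.3 in set 2, 29.6 in set 3 and 20.8 in set 4, against 0.33 and 0.04 CPM in the ESC sets 1 and 3. PCDHB5 made up 53.6% of the PCDHB counts of ffEPSCs, and without it the cluster stood at 16.9 CPM in ESCs against 22.6 CPM in ffEPSCs, with a log2 ratio of 0.40.

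PCDHB3 (chr5:141100473-141103827) followed the same direction in fewer cells. ESCs had 2 counts of it in all, in 1 cell, or 0.0075 CPM. In ffEPSC cells it ran from 0 to 56.9 CPM with a median of 1.56, and it was read in 13 of 25 cells (52%, 31.3 to 72.2). The pooled ffEPSC level was 6.78 CPM, a log2 ratio of 2.95 with 1 CPM added and a counting interval of 7.96 to 12.9 without it. The cell with the highest PCDHB3 held 30.9% of its ffEPSC counts. Of the 13 ffEPSC cells that read PCDHB3, 12 also read PCDHB5, which was read in 23 of all 25. Without PCDHB5 and PCDHB3, the PCDHB genes called higher below, the cluster stood at 16.9 CPM in ESCs against 15.8 CPM in ffEPSCs.

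PCDHB2, next to PCDHB3, was read in both states. Its ESC cells ran from 0 to 27.6 CPM with a median of 5.97, and its ffEPSC cells from 0 to 24.5 CPM with a median of 4.30. It was read in 12 of 16 and 23 of 25 cells, and the pooled levels of 7.74 and 6.42 CPM gave a log2 ratio of -0.24. The PCDHB2 ratio had opposite signs by set, at 0.92 in set 1 and -0.79 in set 3. PCDHB2 was thus the most abundant PCDHB gene of ESCs. In ffEPSCs 21 cells read it together with PCDHB5, and each of the 2 genes was read in 23 of 25 cells.

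PCDHB15, the last gene of the cluster, was read in 3 of 16 ESC and 12 of 25 ffEPSC cells. It reached 34.6 CPM in the highest ESC cell and 37.2 CPM in the highest ffEPSC cell, with medians of 0 and 0.27, and the pooled levels were 2.96 and 6.43 CPM, a log2 ratio of 0.91. A single cell held 72.0% of its ESC counts. PCDHB10 had the opposite direction, with 2.82 CPM in ESCs against 0.44 CPM in ffEPSCs (log2 ratio -1.41), but these counts came from only 2 cells in each state. The other 9 PCDHB genes were under 1 CPM in both libraries.

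**Figure D2:**
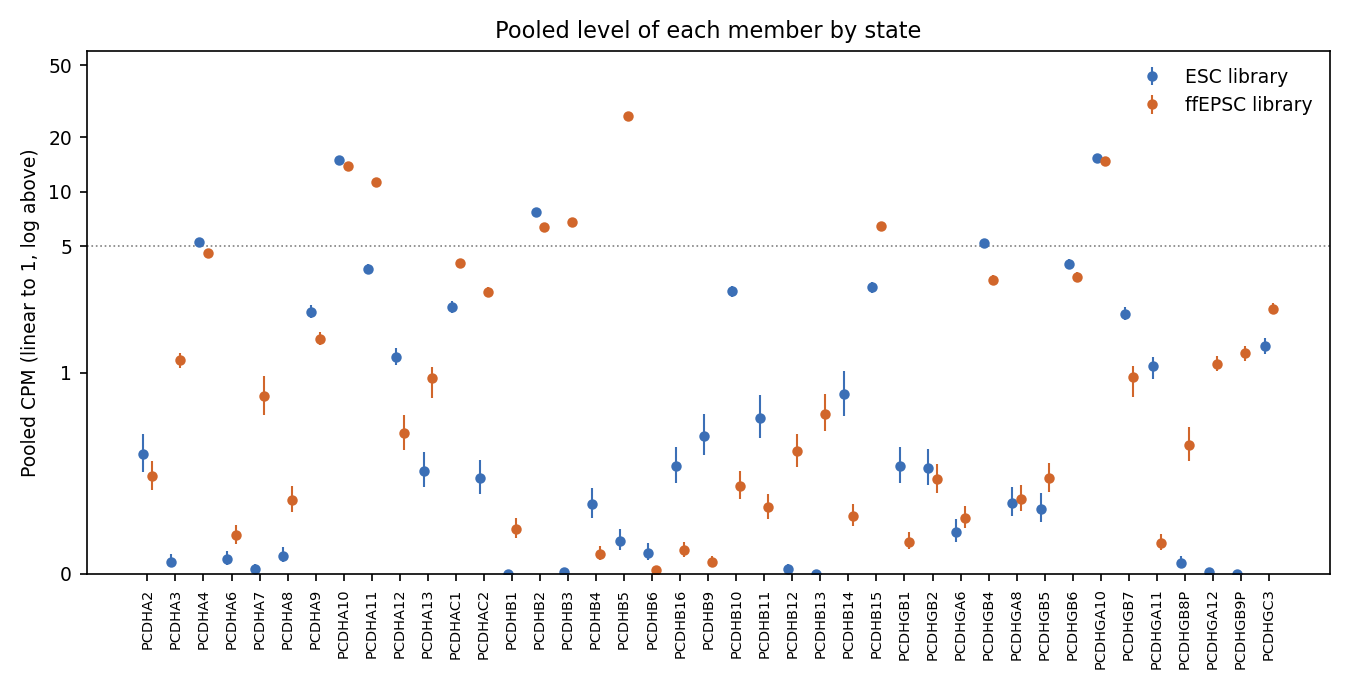
Pooled CPM of each gene in the ESC library (blue) and the ffEPSC library (orange), on an axis that is linear to 1 CPM and logarithmic above, with exact Poisson 95% intervals as bars that cover counting error only. The dotted line marks 5 CPM. PCDHB5, at 0.17 and 26.1 CPM, and PCDHB3, at 0.0075 and 6.78 CPM, show the widest gaps between the states.

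In the PCDHA cluster, PCDHA10 and PCDHA11 had the highest ffEPSC levels, and PCDHA11 differed more between the states. PCDHA11 (chr5:140868183-141012344, including the shared constant exons) had an ESC median of 0.06 CPM and a highest cell of 19.7, against an ffEPSC median of 9.42 and a highest cell of 34.2. It was read in 7 of 16 ESC cells (43.8%, 19.8 to 70.1), and in ffEPSCs in 22 of 25 cells (88%, 68.8 to 97.5). The pooled levels were 3.76 and 11.3 CPM, a log2 ratio of 1.37. That difference was not seen within set 3, where the levels were 5.07 and 4.93 CPM (log2 ratio -0.03).

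PCDHA10 was read in most cells of both states, in 14 of 16 and 21 of 25. Its ESC cells ran from 0 to 27.4 CPM with a median of 19.1, and its ffEPSC cells from 0 to 70.0 CPM with a median of 10.3. The pooled levels were close, at 15.04 and 13.9 CPM (log2 ratio -0.10), although the ffEPSC median was lower. The direction of PCDHA10 was not stable: its log2 ratio was 0.06 without the 4 shallowest ESC cells, 0.78 within set 1 and -0.77 within set 3. PCDHA4 was read in 8 of 16 and 11 of 25 cells, with medians of 1.69 and 0 CPM, highest cells of 29.8 and 23.8 CPM, and pooled levels of 5.25 and 4.59 CPM (log2 ratio -0.16). Its sets went opposite ways, both past 2-fold, with a log2 ratio of 1.07 within set 1 and -1.75 within set 3.

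The C-type genes PCDHAC1 and PCDHAC2 stand at the end of the PCDHA cluster, and in neurons are known to be less subject to the choice between cells than the other genes. Here both were read in a minority of cells. PCDHAC2 was read in 2 of the 16 ESC and 10 of the 25 ffEPSC cells, at 0.47 and 2.80 CPM pooled (log2 ratio 1.36), below the 5 CPM used for calls. PCDHAC1 was read in 6 and 7 cells, at 2.31 and 4.03 CPM (log2 ratio 0.61). Only 1 ESC cell and 2 ffEPSC cells read both. PCDHA9 was read in 5 and 8 cells at 2.17 and 1.54 CPM, PCDHA12 in 4 and 2 cells at 1.23 and 0.70 CPM, and PCDHA3 in 0 and 3 cells at 0.06 and 1.18 CPM.

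The PCDHG cluster was led in both states by PCDHGA10 (chr5:141412987-141512979, including the shared constant exons). It was the single gene of all 41 that was read in every ESC cell, from 1.68 to 40.7 CPM with a median of 12.8. In ffEPSCs it was read in 21 of 25 cells, from 0 to 44.7 CPM with a median of 12.5, and the pooled levels were 15.4 and 14.8 CPM (log2 ratio -0.06). The PCDHGA10 ratio was 0.15 without the 4 shallowest ESC cells and 0.74 within set 1. Within set 3, which holds 2 ffEPSC cells, it was -3.27, from levels of 16.04 and 0.76 CPM. PCDHGB4 was read in 7 of 16 and 9 of 25 cells. Its medians were 0.26 and 0 CPM, its highest cells 13.6 and 20.1 CPM, and its pooled levels 5.19 and 3.27 CPM (log2 ratio -0.54). PCDHGB4 was past 2-fold lower within set 3 (log2 ratio -2.58) and in the 5 ffEPSC cells whose other chromosome 5 genes stood near the ESC level (-1.56). The largest difference in the share of cells in this cluster was that of PCDHGB7, which was read in 10 of the 16 ESC and 3 of the 25 ffEPSC cells, at 2.12 and 0.98 CPM.

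PCDHGB6 was read in 6 cells of each state at 3.98 and 3.40 CPM, but 1 ffEPSC cell held 55.5% of the ffEPSC counts. PCDHGC3, the C-type gene of the cluster that was listed, was read in 2 and 7 cells at 1.40 and 2.26 CPM. PCDHGA11 had 1.09 and 0.15 CPM, in 3 cells and 1 cell. The pseudogene PCDHGB9P had 0 counts in ESCs and 1.28 CPM in ffEPSCs, from 4 cells, and PCDHGA12 had 2 counts in ESCs and 1.12 CPM in ffEPSCs, from 3 cells. Genes at this level thus came from a handful of cells in the state where they were higher.

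**Figure D3:**
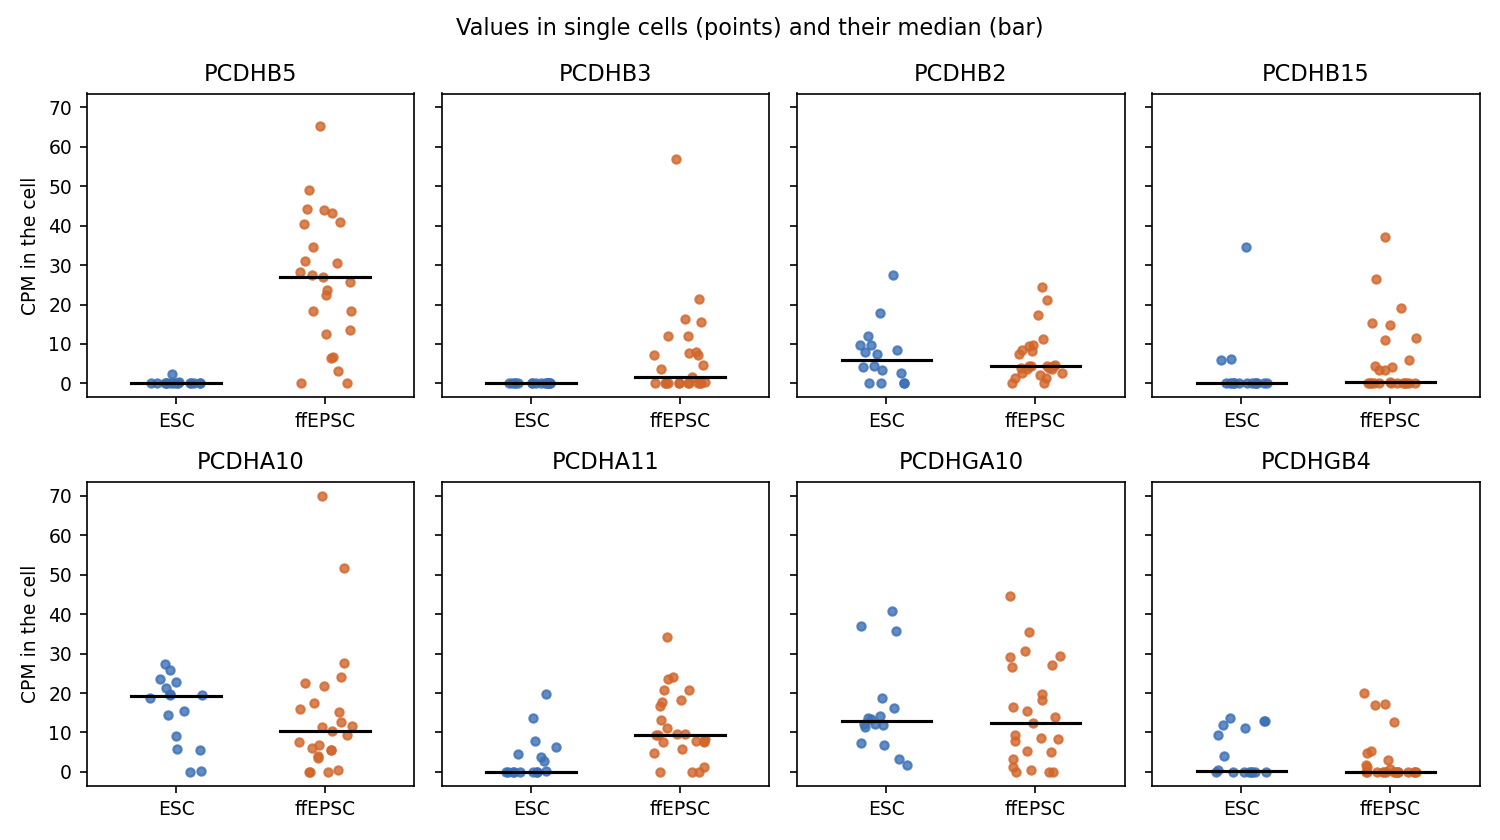
CPM of 8 of the genes with at least 5 CPM in a library, in each ESC cell (blue points) and ffEPSC cell (orange points), with the median of the state as a black bar and points spread sideways at random. PCDHB5 has medians of 0 and 27.1 CPM with 2 ffEPSC cells at 0, while PCDHGA10 has medians of 12.8 and 12.5 CPM over ranges that overlap.

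Compared per kilobase of exon that no other annotated gene overlaps, PCDHB5 was also the most abundant of the 41 genes in ffEPSCs, at 8.98 CPM per kilobase. PCDHA11 (3.36), PCDHGA10 (3.32) and PCDHB3 (2.26) followed, in CPM per kilobase. In ESCs PCDHGA10 was first at 3.46 CPM per kilobase, before PCDHB2 (2.21), PCDHGB4 (2.11) and PCDHA10 (1.57). PCDHA10 and PCDHA4 rank lower on this scale than by CPM, because their own exons are annotated as 9555 and 10574 bases against a cluster median of 3267.

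By a call of at least 2-fold among genes with 5 CPM in 1 library or both, 9 of the 41 genes could be called. Of these, 3 were higher in ffEPSCs (PCDHB5, PCDHB3, PCDHA11) and 0 were lower. Over all 10825 genes at that level, 8.3% were called higher and 5.84% lower. The 9 genes had a median log2 ratio of -0.06 against 0.04 for all genes, whose 5th and 95th percentiles were -1.10 and 1.31. The level itself bears on these counts, since 4 of the 9 reached 5 CPM only in ffEPSCs and 2 only in ESCs. All 3 genes called higher were among those 4, so the tally of 3 higher and 0 lower rests on that filter. At 1 CPM, 21 genes could be called, of which 7 were higher and 1 (PCDHB10) lower. All of the higher genes but PCDHA11 reached 1 CPM only in ffEPSCs, and PCDHB10 only in ESCs. That tally thus rests on the filter too, and the share over all genes was not computed at 1 CPM. The remaining 20 genes were under 1 CPM in both libraries and reached at most 16.4 CPM in any cell.

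The number of genes read per cell was similar in both states. With each cell thinned to 11714517 counts, the depth of the shallowest cell, an ESC cell read a median of 7.5 of the 41 genes (4 to 16) and an ffEPSC cell a median of 9 (6 to 14, and 6 to 15 without thinning). Without the 4 shallowest ESC cells the ESC median was 8.5. By cluster the medians were 3 PCDHA, 2 PCDHB and 3 PCDHG genes in ESCs and 3, 3 and 2 in ffEPSCs. The PCDHB cluster differed at the low end: 3 ESC cells read 0 PCDHB genes and 3 read 1, whereas every ffEPSC cell read at least 2. Conversely, 1 ffEPSC cell had 0 counts of any PCDHG gene, though it had 72.7 CPM of PCDHA and 43.4 CPM of PCDHB.

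**Figure D4:**
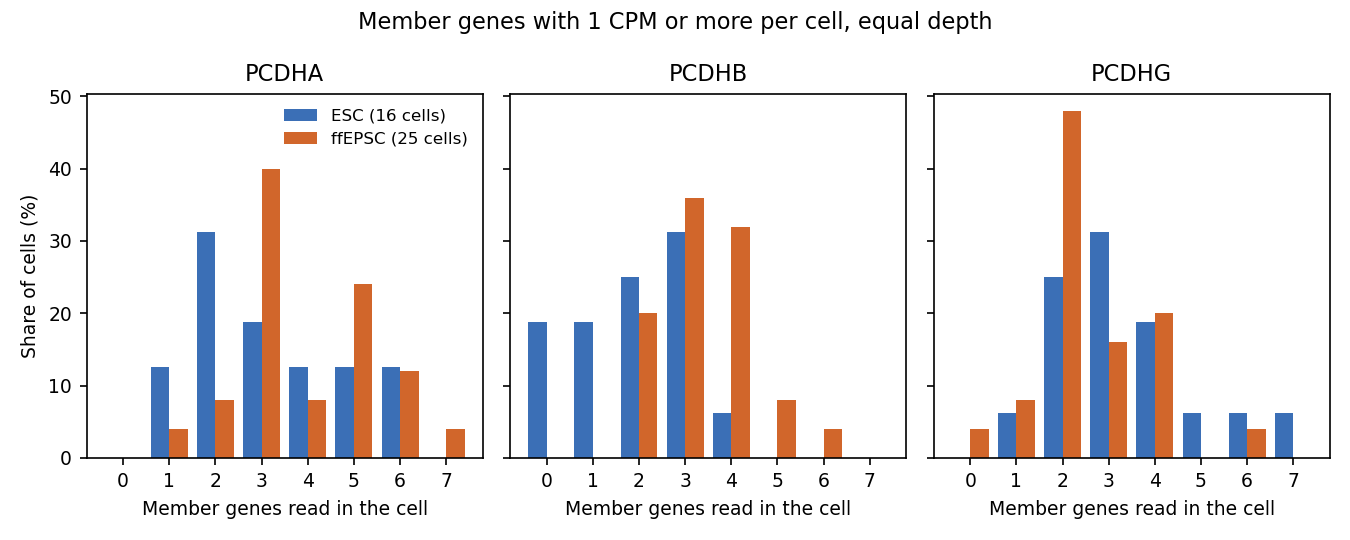
Share of cells, in percent, by the number of PCDHA, PCDHB or PCDHG genes read at 1 CPM or more, in 16 ESC cells (blue) and 25 ffEPSC cells (orange), each thinned to the same depth. Most cells of both states read 2 to 4 genes of a cluster, and the 3 cells with 0 PCDHB genes are ESC cells.

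Within a cluster, the first gene of a cell often took more than 50% of its counts. Its share had a median of 61.5% in PCDHA, 66.7% in PCDHB and 60.2% in PCDHG among ESC cells with at least 100 counts of the cluster, and of 47.4%, 60.7% and 62.1% in ffEPSC cells. The shares ranged widely, for PCDHB from 45.7 to 100% in ESCs and from 33.5 to 89.6% in ffEPSCs.

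The same few genes were first in many cells. In PCDHA, PCDHA10 was first in 12 of 16 ESC cells, whereas in ffEPSCs PCDHA11 was first in 12 and PCDHA10 in 7 of 25 cells. Counted per kilobase of own exon, PCDHA10 was first in 7 ESC and 2 ffEPSC cells and PCDHA11 in 3 and 15. For PCDHB the first gene was PCDHB2 in 8 of 13 ESC cells, and PCDHB10 and PCDHB15 in 2 each, whereas in ffEPSCs it was PCDHB5 in 19 of 25 cells, PCDHB15 in 3, PCDHB3 in 2 and PCDHB10 in 1. For PCDHG it was PCDHGA10 in 10 of the 16 ESC and 14 of the 24 ffEPSC cells, followed by PCDHGB4 in 3 and 4. Per kilobase, PCDHGA10 was first in 7 and PCDHGB4 in 6 ESC cells, and in ffEPSCs they were first in 14 and 4. The most frequent first gene of PCDHB was PCDHB2 in ESCs and PCDHB5 in ffEPSCs on both scales.

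Cells differed in which of the 41 genes were read at 1 CPM. Sets of other genes of the same level were not compared, so distinct sets alone do not show a choice. The 16 ESC cells read 16 distinct sets of the 41 genes, and the 25 ffEPSC cells 25 distinct sets. A pair of ESC cells shared a median of 4 genes, or 0.297 of the genes read in either, a pair of ffEPSC cells 5 genes (0.366), and a pair across the states 4 genes (0.263). Of the 400 pairs across the states, 2 shared no gene. Most genes were read in few cells: in ESCs 11 were read in no cell and 18 in 1 to 3 cells, and in ffEPSCs 1 in no cell and 22 in 1 to 3 cells. A gene read in rare cells is more easily missed among 16 cells than among 25, so these counts do not compare the states. The genes read in at least 50% of ESC cells were PCDHA4, PCDHA10, PCDHB2, PCDHGA10 and PCDHGB7. In ffEPSCs they were PCDHA10, PCDHA11, PCDHB2, PCDHB3, PCDHB5 and PCDHGA10.

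Reading in few cells was, however, common for genes of such low level. Of all genes with 1 to 5 CPM in a library, the median gene was read in 37.5% of the ESC cells and in 36% of those in the ffEPSC state. The protocadherins in that range had medians of 28.1% and 28%. For genes of 5 to 30 CPM the medians were 81.3% and 84%, and those of the protocadherins 75% and 84%. The protocadherins at 5 to 30 CPM were thus read in about as many cells as other genes of their level in ffEPSCs.

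Whole-chromosome levels moved with the state as well. The mean shift of 343 other chromosome 5 genes, relative to ESC cells and to the cell's other autosomes, ran from -0.16 to 0.30 in ESC cells and from -0.16 to 0.57 in ffEPSC cells, with an ffEPSC median of 0.46 on the log2 scale. The 494 other chromosome 5 genes with 5 CPM had a median log2 ratio of 0.32, with 13.2% at least 2-fold higher and 3.04% lower. In the 5 ffEPSC cells with a shift under 0.3, PCDHB5 had 20.03 CPM pooled and was read in 4 cells, against 27.7 CPM and 19 cells in the other 20. PCDHB3 had 4.81 CPM pooled in those 5 cells and was read in 2 of them, at 21.5 and 3.57 CPM with a median of 0.45, against 7.29 CPM and 11 cells in the other 20. In the 5 cells the log2 ratios against ESCs were 4.17 for PCDHB5 and 2.53 for PCDHB3, the latter mostly from 1 cell.

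PCDHA11 was different: it had 4.45 CPM in the 5 cells with little shift and 13.1 CPM in the other 20, against 3.76 CPM in ESCs. Its pooled log2 ratio in the 5 cells was 0.19, so its 2-fold call rested on the cells with the shift. By cells, PCDHA11 was read in 4 of those 5, with a median of 4.75 CPM. In the other 20 it was read in 18, with a median of 10.3 CPM. ESCs had it in 7 of 16 cells, with a median of 0.06 CPM, and 1 cell held 32.3% of their counts. The whole PCDHA cluster had 26.5 and 47.2 CPM in the 5 and the other 20 cells, PCDHG 25.8 and 30.7 CPM, and PCDHB 51.6 and 48.0 CPM. PCDHB15 went the other way, with 18.5 CPM in the 5 cells and 3.33 CPM in the other 20. Both ffEPSC cells of set 3 were among the 5, so set and shift cannot be told apart there.

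Genes beside the clusters moved little. Within 500 kb, 25 other protein-coding genes were listed under a symbol of the annotation used, and 19 had 5 CPM. Their median log2 ratio was 0.34, with 17 of 19 above 0, 1 at least 2-fold higher and 1 lower. TAF7, a subunit of the general transcription factor TFIID, lies between PCDHB and PCDHG and had 237 and 282 CPM (log2 ratio 0.25). DIAPH1, an actin-nucleating formin just beyond PCDHG, was the gene that was higher, at 35.8 and 84.6 CPM (log2 ratio 1.22). ARAP3, a GTPase-activating protein, was the one that was lower, at 7.95 and 3.28 CPM (-1.07). All 19 ratios were below those of PCDHB5 and PCDHB3. A second list of neighbouring genes, drawn up by name, had 18 of 20 genes at 5 CPM, with a median of 0.37, 1 higher and 1 lower. It shared most of its genes with the first list, and the 2 called were again DIAPH1 and ARAP3, so it is no separate result. HARS1, at 133 and 192 CPM (log2 ratio 0.53), was only on the second list, because the annotation used does not hold that symbol.

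**Figure D5:**
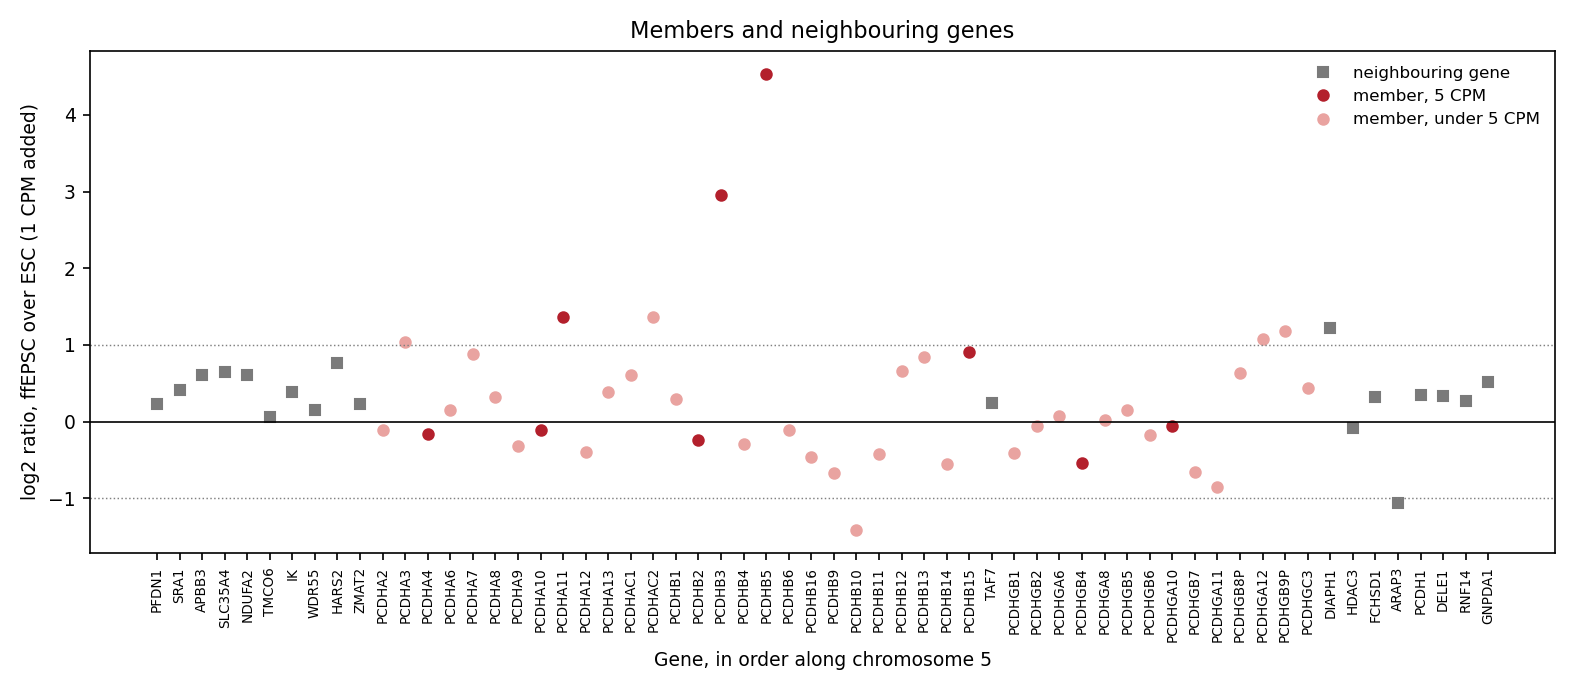
Log2 ratio of pooled ffEPSC over ESC level, with 1 CPM added, for the clustered protocadherins (red circles, pale where under 5 CPM in both libraries) and for neighbouring genes with 5 CPM (grey squares), in order along chromosome 5 and not to scale. Dotted lines mark a 2-fold difference. PCDHB5 at 4.54 and PCDHB3 at 2.95 stand above genes on either side of them.

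Genes that act on protocadherin promoters were compared from lists. Of 13 CTCF and cohesin genes, all 13 had 5 CPM and 0 were called, with a median log2 ratio of 0.02 and a range from -0.32 (SMC3, a cohesin subunit) to 0.93 (NIPBL, the cohesin loader). CTCF itself had 52.3 and 59.4 CPM. Of 17 DNA methylation and silencing genes, 16 had 5 CPM, with a median of -0.12, 1 higher and 2 lower. DNMT3L, a cofactor of the de novo methyltransferases, had 0.22 CPM in ESCs against 261 CPM in ffEPSCs (log2 ratio 7.75). TET2, which oxidises methylated cytosine, had 5.27 and 1.32 CPM (-1.44), with a ratio of -0.19 within set 1 and -3.11 within set 3. SMCHD1, a chromatin protein known to act in silencing of the protocadherin clusters in mice, had 48.2 and 23.4 CPM (-1.01). The SMCHD1 ratio was -1.11 within set 1 and -0.36 within set 3, so neither SMCHD1 nor TET2 was past 2-fold in both sets. Whether these moved with the protocadherins in a cell was not tested.

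Partners of protocadherin signalling and processing were mostly level. Of 19 such genes 17 had 5 CPM, with a median of 0.02, 0 higher and 1 lower. The gene that was lower was WASF1, a subunit of the WAVE complex that binds the tails of some protocadherins, at 34.3 and 7.53 CPM (log2 ratio -2.05). Of 11 listed non-clustered protocadherins, which lie outside the clusters, 6 had 5 CPM, with a median of 0.56, 1 higher and 0 lower. The higher gene was PCDH9, at 0.86 and 5.55 CPM (1.82), read in 4 of 16 and 7 of 25 cells, 1 of which reached 95.8 CPM. The PCDH9 ratio had opposite signs by set, at 1.38 within set 1 and -0.72 within set 3. Of 10 classical cadherins and catenins, 8 had 5 CPM, with a median of 0.08. CDH2, the N-cadherin, was lower, at 35.0 and 8.10 CPM (-1.98), and CDH11 was higher, at 4.14 and 9.61 CPM (1.04).

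Markers of other cells were compared because protocadherins are best known from neurons. Of 13 listed neural markers 4 had 5 CPM, with a median log2 ratio of -1.84, 0 higher and 2 lower. These were FABP7, at 62.6 and 1.03 CPM (log2 ratio -4.97), and MAP2, at 9.87 and 0.02 CPM (-3.42). Summed over the list, ESC cells ran from 40.5 to 211 CPM and ffEPSC cells from 11.9 to 111 CPM. FABP7 and MAP2 carried most of the difference in the sum, and 6 of the 13 markers had a ratio above 0, among them NES, at 22.5 and 24.2 CPM (0.10). PAX6 had 0.35 and 0.08 CPM, and ELAVL4 was at 0 in ESCs. Of 6 listed fibroblast markers 5 had 5 CPM, with 0 higher, 4 lower and a median of -1.56, and summed levels from 143 to 765 CPM in ESC cells and 47.6 to 414 in ffEPSC cells. Those lower were S100A4 (34.2 and 0.46 CPM), TAGLN (47.1 and 12.5), COL1A1 (8.67 and 2.28) and THY1 (382 and 169). THY1 was read in all 16 ESC and all 25 ffEPSC cells and made up most of the pooled level of this list. The sums thus mostly follow THY1 and are no measure of fibroblast content. Of 5 listed trophoblast and amnion markers 1 had 5 CPM, KRT7, at 6.93 and 1.63 CPM (-1.60). Its ratio had opposite signs by set, at 1.19 within set 1 and -3.45 within set 3. Below 5 CPM, GATA3, GATA2 and ISL1 were higher in ffEPSCs, at 0.69, 1.01 and 1.84 CPM. In ESCs they had 0, 0 and 0.0075 CPM. GABRP was lower in ffEPSCs, at 3.15 and 0.28 CPM. Summed over this list, levels ran from 0 to 25.98 CPM in ESC cells and from 0 to 26.6 in ffEPSC cells. The part of other cells in the protocadherin levels was not tested.

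Some counts are less certain than others. Reads in the constant exons of PCDHA or PCDHG cannot be given to a single gene, and no source used here says how the authors' counting treated them. Stretches of 100 bases identical to another gene of the clusters made up 54.3% of the variable part of PCDHGB4, 24.5% of PCDHB10 and 17.8% of PCDHA10, but 3.06% of PCDHB5 and 9.03% of PCDHB3. Annotated antisense genes overlap PCDHA10, PCDHB2, PCDHB3, PCDHB5, PCDHB10 and PCDHB15, among others. Those over the genes named here were not listed in the count tables, and without knowing the use of strand their reads cannot be told apart.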

How the data were processed

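Members and gene lists were chosen with earlier results of these data known. The authors deposited whole-number counts for each gene and cell, with no normalization. Tools named, per the submitters' processing notes, are Subread 2.0.6 with featureCounts, HISAT2 2.2.1, SAMtools 1.6 and bcl2fastq, on the builds T2T-CHM13 and GRCh38, with no roles stated. About 98.5% of non-zero counts in ESC cells and 98.4% in ffEPSC cells were even, so intervals from counts are narrower than those from fragments would be. No cells had identical counts, and doublets were not called. Repeat tables were not used here.

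Counts were summed per state and divided by the library total (CPM). A ratio is the log2 of the ffEPSC level over the ESC level, each with 1 CPM added. With 1 sample per state no p-value was computed. Intervals are at 95%: exact Poisson for a level, conditional binomial (exact) for a ratio, Clopper-Pearson for a share of cells. Every member with 5 CPM in a library is named, others with 1 CPM in a library or in 5 cells may be, and list genes are named where 2-fold apart with 5 CPM, up to 5 a list. POU5F1, SMC3, NIPBL, CTCF, TAF7, NES, PAX6, ELAVL4, GATA2, GATA3, ISL1 and GABRP were named after their values were seen. A gene was read in a cell at 1 CPM. The chromosome 5 shift used genes with 20 CPM. ESC cells carry set numbers 1 (7 cells) and 3 (9), and ffEPSC cells 1 (3), 2 (9), 3 (2) and 4 (11), and no source used here gives their meaning. Annotation is GENCODE 29. The steps ran in Python 3.11.15 with pandas 2.3.3 and scipy 1.17.1 and were tested on simulated data.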

Additional observations from a re-analysis of the deposited data

How the results depend on the processing

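PCDHB5 and PCDHB3 kept their direction and stayed over 2-fold under all 9 alternatives, with log2 ratios of at least 4.17 and at least 1.54. The PCDHB cluster stayed over 2-fold in each alternative but the last given here: it was 2.31 in set 1, 1.603 in set 3, 1.303 without the 4 shallowest ESC cells, 1.54 with only the ffEPSC cells that had no chromosome 5 shift, 1.41 with median-of-ratios scaling, 1.14 relative to the chromosome 5 median, 1.56 without the cell of highest summed level in each state and 1.51 with 0.1 CPM added. Without PCDHB5, an alternative chosen after seeing the data, it was 0.40. Under the same settings in the same order PCDHA was 1.12, -0.14, 0.47, -0.24, 0.38, 0.11, 0.34 and 0.44, and 0.78 without PCDHA10, and PCDHG was 0.65, -0.54, 0.039, -0.27, -0.12, -0.39, -0.12 and -0.074, and -0.16 without pseudogenes. The PCDHA11 difference was not seen within set 3 (-0.032), and its ratio was 0.19 in ffEPSC cells without the shift. PCDHB15 passed 2-fold within set 1 (1.61), within set 3 (1.90), without the shift (2.30) and with 0.1 CPM added (1.09).

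The number of genes at least 2-fold higher was 6 of 11 in set 1, 7 of 21 at a level of 1 CPM, 1 of 1 at 20 CPM and 7 of 41 with no level. The number lower was 1 within set 3, without the shift, at 1 CPM and with no level. Shares over all genes were not computed for these settings, so the tallies have no background to be read against. The median ratio of the callable genes moved with the few genes that entered: it was 0.39 for the mean of cells, 1.07 in set 1, 0.93 in set 3, 0.15 without the shallowest cells, -0.50 without the shift, -0.11 with median-of-ratios scaling, -0.38 relative to chromosome 5, 0.88 without the cell of highest level, 4.54 at 20 CPM and 0.021 with no level. Genes read per cell moved past a set fold tolerance in 2 of 56 settings. These were a median of 1 PCDHB gene in ESCs at 5 CPM and 5 PCDHA genes in the ffEPSCs of set 1. Some of the 56 leave out cells of only 1 state and could not move the other. The share of the first gene stayed within 1 standard deviation between cells in 24 of 24. That margin is wide, at 15.5 to 24.4 percentage points. In cells with at least 500 counts, the PCDHA, PCDHB and PCDHG medians were 51.1, 70.3 and 43.1% in ESCs. In ffEPSCs they were 45.8, 59.5 and 56.1%. The cause of these differences was not tested. No paired analysis was possible because each state is 1 sample and the replicate number only names it. Set 1 holds 3 and set 3 holds 2 ffEPSC cells, which limits the values within sets.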

Other observations

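Single cells departed from the common pattern, and their values are given here as chosen after they were seen. The 2 ffEPSC cells that did not read PCDHB5 were cells G5 and H7 of set 4. G5 had 26.5 CPM of PCDHB15 as its first PCDHB gene, and H7 had 7.68 CPM of PCDHB3. Cell F5 of set 4 had the highest PCDHB3, at 56.9 CPM. The ffEPSC cell without PCDHG counts, H1 of set 2, had 51.7 CPM of PCDHA10. In cell E2 of set 1, the ffEPSC cell with the highest summed level, PCDHA10 reached 70.0 CPM and PCDHGB6 48.0 CPM.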
